A study of Mus musculus with 6 samples.

Results

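The 73 genes described here encode the Rab GTPases and the syntaxin and VAMP SNAREs that direct vesicles between the compartments of a cell. They were chosen by symbol, as every row of the deposited table named Rab, Stx or Vamp with a number and an optional letter, and they make up 73 of 13642 genes: 54 Rab, 13 Stx and 6 Vamp genes. Each was put on the route for which its protein is best known, 17 on the ER-Golgi route, 19 on the exocytic, 17 on the endosomal and 14 on the lysosomal route, with 6 others. Many of these proteins serve several routes, so each route is a working grouping.

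The cells were long-lived plasma cells sorted from C57BL/6J bone marrow: B220-, IgD- and CD138high, and also TCRb-, TCRgd-, CD11b- and Gr-1-. The 3 old libraries came from males aged 17 to 19 months, supplied by the National Institute on Aging, and the 3 young libraries from females aged 2 to 3 months, supplied by Jackson Laboratory or UCLA. Age, sex and supplier therefore cannot be told apart, and Rab9 and Rab39b lie on chromosome X. Nothing in the labels says whether a library is 1 animal or a pool, so a p-value here is set against a spread among libraries that could be technical.

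Rab proteins are switches. Loaded with GTP they sit on a membrane through a lipid anchor and recruit tethers and motors, and after GTP hydrolysis they are drawn off the membrane again by GDI proteins. SNAREs then carry out fusion: syntaxins on the target membrane zip into a bundle with SNAP or Vti1 type partners and with a VAMP on the vesicle. Plasma cells pass antibody in bulk from the endoplasmic reticulum through the Golgi to the surface, while endosomes and lysosomes renew receptors and remove worn material.

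Depth was about 27.1 M to 27.5 M fragments in the old libraries and 22.6 M to 25.5 M in the young ones. It was estimated from the most repeated low product of FPKM and exon length, taken as 1 fragment. Only 20.9% to 34.2% of low values then lay near whole fragments, so depths and fragment numbers here are rough. In old libraries 11310 to 12049 genes were above 0, against 8934 to 10664 in young ones. Of 9 listed plasma cell genes, all but Ly6k were at least 45.1 FPKM in every library. Sdc1, which encodes the sort marker CD138, was 174 to 350 FPKM in old and 236 to 407 FPKM in young libraries. Ly6k was 0 in each old library and 11.4, 0.349 and 0 in young ones. On the log2 scale 8 of the 9 were lower in old libraries (median change -0.41), and none was called by the test given below. Of all genes tested 61.3% were higher. All listed genes but Ly6k had means above 20 FPKM, and of the 2835 genes from that level upward 1456 were higher (median change 0.02). Each listed gene but Ly6k had its lowest value of the 6 libraries in old replicate 3. Old replicate 3 stood apart, with Jchain at 7514 FPKM against 16937 to 19793 in the other 5 libraries, and with the highest values of some granulocyte genes, Elane, Mpo and Mcpt8 (220, 264 and 265 FPKM). Other neutrophil genes were low there, with S100a9 and Ngp at their lowest of the 6 libraries (40.2 and 38.4 FPKM) and S100a8 at 1.03.

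The promoter windows of Rab24, the member of smallest p, of Rab5a and of Stx5a are shown because they hold letters known from other work on lysosomal and endoplasmic reticulum stress. The E-box CACGTG is the centre of the CLEAR element bound by TFEB, and CCACGT, which reads ACGTGG on the other strand, is a core shared by elements bound by XBP1. These 2 motifs can overlap. Each window runs from 250 bases before to 50 after a gene's start, written 5′ to 3′ on the gene's strand, and capitals mark the letters of either motif on either strand. The sequences are RefSeq's, on GRCm38.p6.
Rab24 (chr13:55321931-55322230, minus strand): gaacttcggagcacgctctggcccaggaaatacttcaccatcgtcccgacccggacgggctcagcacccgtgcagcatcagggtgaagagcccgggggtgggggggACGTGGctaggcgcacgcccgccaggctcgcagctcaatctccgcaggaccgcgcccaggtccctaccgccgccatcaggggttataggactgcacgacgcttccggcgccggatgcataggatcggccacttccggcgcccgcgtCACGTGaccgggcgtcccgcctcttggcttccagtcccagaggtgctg
Rab5a (chr17:53478984-53479283, plus strand): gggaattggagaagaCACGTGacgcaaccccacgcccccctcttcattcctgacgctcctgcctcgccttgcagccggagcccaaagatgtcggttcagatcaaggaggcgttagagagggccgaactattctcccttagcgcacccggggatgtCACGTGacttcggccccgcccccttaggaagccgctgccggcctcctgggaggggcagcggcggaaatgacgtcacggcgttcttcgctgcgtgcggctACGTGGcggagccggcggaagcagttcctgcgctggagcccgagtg
Stx5a (chr19:8741174-8741473, plus strand): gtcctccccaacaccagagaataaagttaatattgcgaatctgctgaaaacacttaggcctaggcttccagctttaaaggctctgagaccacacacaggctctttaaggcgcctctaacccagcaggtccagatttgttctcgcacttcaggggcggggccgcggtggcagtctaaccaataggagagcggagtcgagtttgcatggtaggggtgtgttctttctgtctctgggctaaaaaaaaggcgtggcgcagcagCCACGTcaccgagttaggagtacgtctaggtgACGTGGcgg

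In Rab24 the E-box begins at base 3 after the start and ACGTGG at position -144, counted back from it. In Rab5a the E-box occurs at positions -235 and -95, and ACGTGG at base 5 after the start. In Stx5a the XBP1 core occurs on each strand, at bases 10 and 42 after the start. The E-box was in 8 of 73 windows of the 60 members that the promoter table holds (10.96%), against 7.15% of all 32851 windows, and the XBP1 core in 9 of 73 (12.3%), against 8.31%. Letters in a window are a description of sequence and not a sign that a factor binds there.

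The question put to these genes was whether their transcript levels depend on the age of the mice. None was called. Limma, on log2(FPKM + 1), called 0 of the 63 members whose mean was at least 1 FPKM, as it called 0% of all 10687 genes tested, and their adjusted p lay between 0.839 and 0.996. Of the 63, 39 had a log2 change above 0 (61.3% of all genes tested had one). The median log2 change was 0.17, against 0.23 for all genes tested. Without old replicate 3, 36 members were above 0 and the median was 0.15. At an unadjusted p under 0.05 there was 1 member with higher old values, Rab24, where 4.66% of all genes were, and 0 with lower old values, where 1.25% were. In bulk cells, fewer cells of a type and less RNA per cell cannot be told apart.

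The summed level of the family differed between ages by less than the spread within the old group. Its summed FPKM was 1111, 1216 and 1332 in old libraries and 1250, 1199 and 1220 in young ones, or 0.369% to 0.437% of all FPKM in old and 0.388% to 0.416% in young libraries. The young values lay inside the range of the old ones. The routes took different shares of that sum. The ER-Golgi genes made up 32.9%, 28.9% and 23.2% of it in old libraries, against 39.2%, 37.2% and 29.7% in young ones, so the ranges overlapped. The endosomal genes made up 21.9%, 27.7% and 30.0% in old against 18.9%, 16.2% and 27.9% in young libraries. The exocytic share was 23.8%, 23.8% and 21.9% against 22.6%, 29.1% and 25.9%, and the lysosomal share 20.1%, 17.7% and 18.97% against 18.1%, 16.6% and 15.7%.

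**Figure D1:**
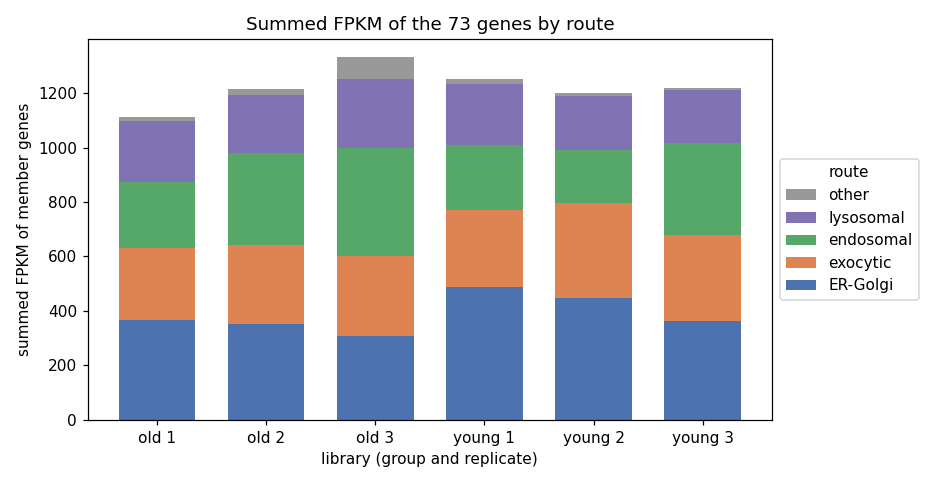
Summed FPKM of the 73 genes in each library (bars from 0), split by route, old libraries at left and young at right. Bars run from 1111 to 1332 FPKM, and the ER-Golgi segment is 309 to 366 FPKM in old and 362 to 490 FPKM in young libraries.

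The routes also differed in the sign of the log2 changes, with no member called in any of them. On the ER-Golgi route 6 of 16 tested members were higher and 10 lower in old libraries, with a median log2 change of -0.09, and on the exocytic route 6 of 15 were higher, with a median of -0.04. On the endosomal route 11 of 15 were higher, with a median of 0.47, and on the lysosomal route 12 of 13, with a median of 0.34. Of those 12, Rab12, Rab9, Stx8 and Rab39b had lower mean FPKM in old libraries. Means were 10.8, 14.3, 5.74 and 4.70 in old and 20.9, 19.0, 6.96 and 4.84 in young libraries. Each of these genes had a young library at 1.79 FPKM or less. Rab31, Rab19, Rab33b and Stx1a of the other routes also had a positive log2 change with a lower old mean, and Vamp4 the reverse. Over all genes the median moved with expression level, so abundant members were also read alone. Among the 24 members with means from 20 FPKM upward the median was -0.03 and 11 were higher in old libraries. Of all 2835 genes of that level 1456 were higher, with a median of 0.02. Of these abundant members 1 of 7 was higher on the ER-Golgi route, 2 of 8 on the exocytic, 5 of 6 on the endosomal and 3 of 3 on the lysosomal route. Among those higher, Rab6a, Rab21, Rab4b, Rab5b and Vamp8 had a young library near or at 0. The routes were not tested against each other.

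**Figure D2:**
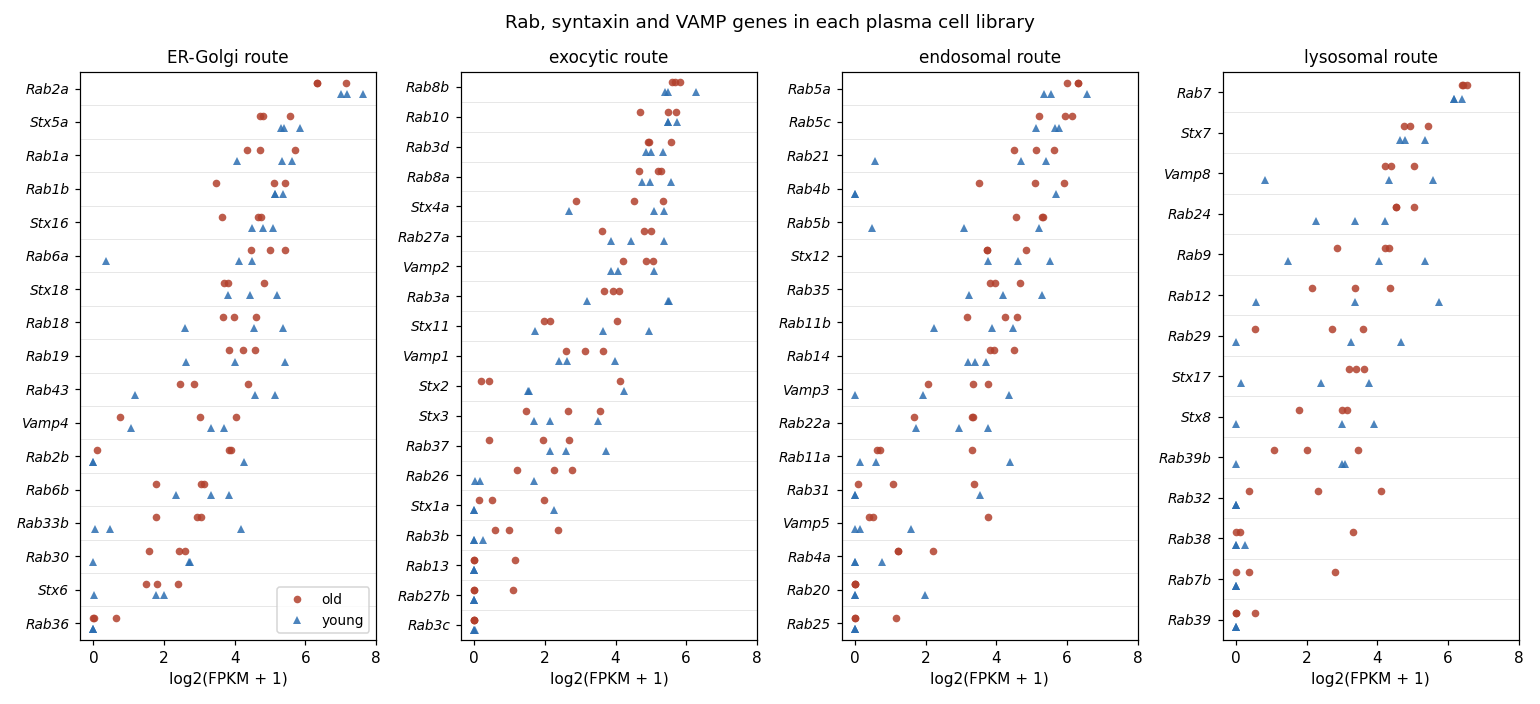
Log2(FPKM + 1) of the members of the 4 routes in each library, old as circles above young as triangles, with the genes of a route ordered by mean level. Rab2a, Rab7, Rab5a and Rab8b lead their routes, and several genes such as Rab4b and Rab6a have single libraries far below the others.

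On the ER-Golgi route the most abundant gene was Rab2a, which acts between the endoplasmic reticulum exit sites and the Golgi. Rab2a (ENSMUSG00000047187, chromosome 4, 8535644 to 8607778, GRCm38, plus strand) was 141, 78.7 and 79.7 FPKM in old libraries and 196, 145 and 128 FPKM in young ones. It was the highest of the 73 genes and ranked 288 of all 13642. Old replicate 1 lay above young replicate 3, so the groups overlapped by that library. The means were 99.8 ± 35.7 in old and 157 ± 35.5 in young libraries (SD, n = 3). Its log2 change was -0.68 ± 0.34 (SE; limma adjusted p = 0.839). A processed copy, Gm5865, shares 637 aligned bases with it at 96.4% identity, and how its reads were counted is not given in the sources used here. Its paralogue Rab2b was 13.2, 13.7 and 0.0675 FPKM in old libraries, and it was 18.3, 0 and 0 in young ones (log2 change 1.18 ± 1.42, SE; limma adjusted p = 0.890). Over 59.3% of the exon bases of Rab2b are also those of an antisense gene, Gm43766.

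Rab1, the switch for traffic from the endoplasmic reticulum to the Golgi, is made from a pair of paralogues. Rab1a was 19.4, 25.4 and 51.2 FPKM in old libraries, against 48.1, 39.4 and 15.9 in young ones. Rab1b was 42.0, 33.4 and 10.1 FPKM in old libraries, against 34.6, 40.5 and 34.6 in young ones. The paralogues went opposite ways within old libraries: Rab1b was 68.4% of the Rab1 sum in old replicate 1 and 16.4% in old replicate 3. Their sum was 60.5 ± 1.49 FPKM in old and 71.0 ± 17.9 FPKM in young libraries (SD, n = 3), less spread than either paralogue in old libraries but more than Rab1b alone in young ones (36.6 ± 3.40). Groups overlapped for each paralogue and for the sum, with log2 changes of -0.08 ± 0.55 for Rab1a and -0.56 ± 0.54 for Rab1b (SE; limma adjusted p = 0.989 and 0.854).

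Rab6a, which works in retrograde traffic and exit from the Golgi, was 41.9, 21.0 and 31.3 FPKM in old libraries and 21.5, 0.286 and 16.4 in young ones. Young replicate 2 was far below the rest, and young replicate 1 lay just above old replicate 2. The log2 change of Rab6a was 1.97 ± 0.98 (SE; limma adjusted p = 0.839), and without young replicate 2 it was 0.66. Rab6b, in contrast, was 7.28, 7.81 and 2.43 FPKM in old against 4.03, 9.01 and 13.2 in young libraries. Rab6b was therefore 7.20% to 27.1% of the Rab6 sum in old libraries, and 15.8% to 96.9% in young ones. Rab6a shares 19.0% of its exon bases with Mrpl48 on the opposite strand, and 557 aligned bases with a copy, Gm13082, at 95.3% identity. Mrpl48 was 7.43, 6.41 and 9.71 FPKM in old and 3.53, 3.15 and 0.00609 in young libraries, with no overlap. The part of either gene in the Rab6a values was not tested.

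Among the syntaxins of this route, Stx5a, the cis-Golgi SNARE whose promoter is printed above, was 27.0, 46.0 and 25.4 FPKM in old libraries and 41.4, 56.5 and 38.5 in young ones. Old replicates 1 and 3 lay below every young library, and old replicate 2 above young replicates 1 and 3. Its log2 change was -0.49 ± 0.41 (SE; limma adjusted p = 0.854). Stx18, which receives vesicles returning to the endoplasmic reticulum, was 13.1, 27.3 and 11.9 FPKM in old and 13.0, 20.6 and 36.0 in young libraries (log2 change -0.37 ± 0.56, SE; limma adjusted p = 0.915). Stx16, at the trans-Golgi network, was 11.4, 25.8 and 24.1 against 21.4, 26.9 and 33.3. Stx6, also of that network, was lower than these, at 2.46, 1.81 and 4.26 in old and 2.99, 2.40 and 0.00410 in young libraries. Groups overlapped for these 4 syntaxin genes.

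The remaining ER-Golgi genes varied more between libraries than between ages. Rab18, linked to the endoplasmic reticulum and lipid droplets, was 11.8, 14.7 and 23.1 FPKM in old and 39.97, 22.5 and 5.05 in young libraries. Rab19 was 17.8, 13.3 and 22.9 against 15.2, 42.0 and 5.19, and Rab43, a Golgi Rab, was 4.43, 19.9 and 6.26 against 1.28, 23.0 and 34.3. Rab43 shares 75.35% of its exon bases with Gm45140 on the same strand. Vamp4, the trans-Golgi R-SNARE, was 0.672, 15.5 and 7.13 in old and 9.01, 11.97 and 1.10 in young libraries. Rab33b, a Golgi Rab also used in autophagy, was 7.19, 2.41 and 6.69 against 17.0, 0.0292 and 0.395, a log2 change of 1.02 ± 1.16 (SE; limma adjusted p = 0.881). Rab30 lay between 1.95 and 5.09 in old libraries and at 5.56, 5.69 and 0 in young ones. Rab36 was at most 0.567 FPKM in any library.

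On the exocytic route Rab8b and Rab8a, close paralogues in transport to the plasma membrane, were high in each library. Rab8b was 55.2, 47.4 and 50.8 FPKM in old and 44.0, 77.0 and 41.2 in young libraries. Rab8a was 35.6, 38.4 and 24.2 against 25.8, 30.4 and 46.0. Rab8b made up 61.3% ± 6.25 of their sum in old and 60.7% ± 12.4 in young libraries (SD, n = 3). Rab10, a relative with a similar role, was 51.7, 24.6 and 44.0 FPKM in old and 43.5, 44.1 and 52.6 in young libraries. The log2 changes were -0.02 ± 0.38 for Rab8b, -0.04 ± 0.42 for Rab8a and -0.27 ± 0.40 for Rab10 (SE; limma adjusted p between 0.915 and 0.995).

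The Rab3 and Rab27 genes are known for regulated release of granules. Rab3d, the form of many non-neuronal secretory cells, was 29.1, 46.1 and 29.7 FPKM in old and 39.8, 27.8 and 31.0 in young libraries, a spread of 1.66-fold from lowest to highest (log2 change 0.07 ± 0.40, SE; limma adjusted p = 0.987). Rab3a was 14.1, 16.0 and 11.7 in old libraries, and 8.05, 44.7 and 43.7 in young ones. Young replicates 2 and 3 stood above all old libraries and young replicate 1 below them. The log2 change of Rab3a was -0.83 ± 0.66 (SE; limma adjusted p = 0.854). Without young replicate 1 it was -1.61, at a limma adjusted p of 0.439, without young replicate 2 it was -0.44 and without young replicate 3 -0.46. Rab3d was 66.6% to 70.1% of the Rab3 sum in old libraries and 38.2% to 83.2% in young ones. Rab27a, the main Rab27 of blood cells, was 11.2, 31.1 and 26.8 FPKM in old and 13.6, 40.3 and 20.6 in young libraries (log2 change -0.08 ± 0.57, SE; limma adjusted p = 0.990). Rab27b was listed at 0 in each library but old replicate 3, at 1.13.

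**Figure D3:**
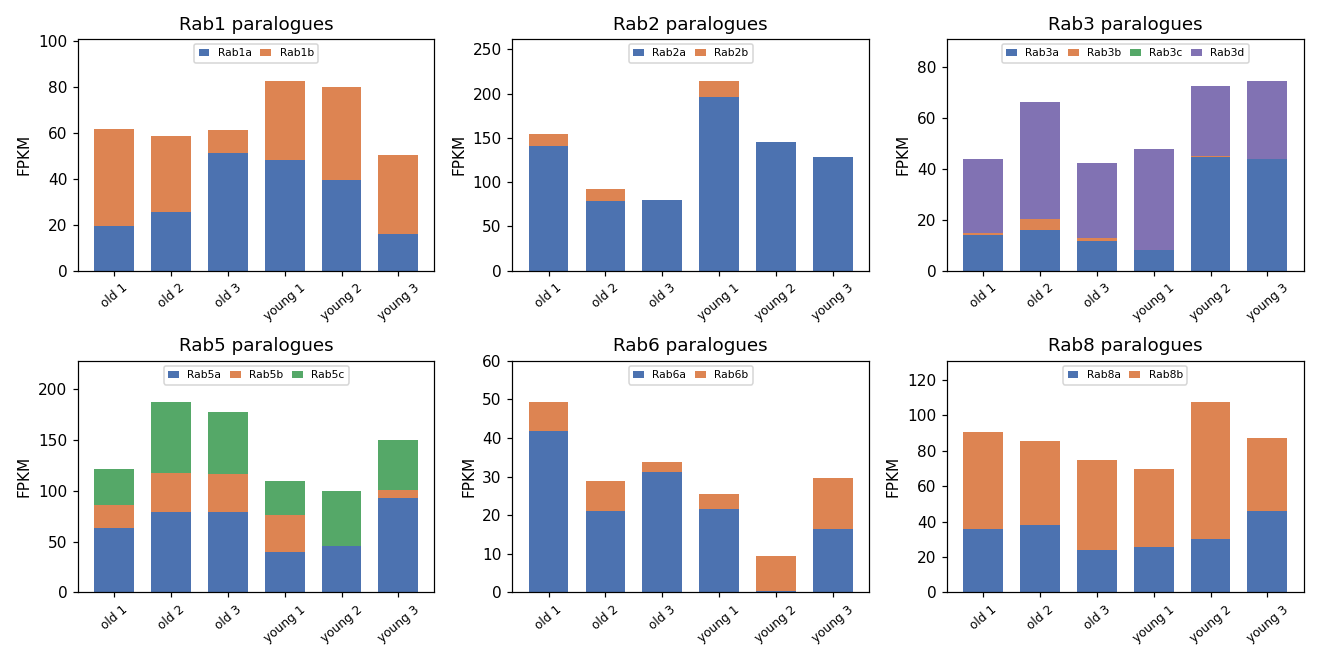
FPKM of Rab1, Rab2, Rab3, Rab5, Rab6 and Rab8 paralogues stacked in each library, old libraries at left. Rab2a was at least 85.1% of the Rab2 sum in every library, while Rab1b ranged from 16.4% to 68.5% of the Rab1 sum.

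SNAREs for fusion with the surface were uneven. Stx4a, the plasma membrane syntaxin of many secretory cells, was 6.41, 22.0 and 39.4 FPKM in old and 33.0, 40.5 and 5.42 in young libraries. Stx3 was 1.76, 5.33 and 10.9 against 3.39, 10.4 and 2.23, so Stx4a had the higher level of the 2 in every library. Stx2 was high in a single library of each group, at 0.321, 0.135 and 16.5 in old and 17.8, 1.84 and 1.91 in young libraries. Stx11, known for granule release by cytotoxic lymphocytes, was 15.6, 2.93 and 3.43 against 30.1, 2.31 and 11.4. Stx1a, the neuronal syntaxin, was at most 3.75 FPKM and was at 0 in young replicates 1 and 3. These syntaxin levels overlapped between the groups, with log2 changes of -0.13 ± 0.83 for Stx4a, 0.12 ± 0.89 for Stx3 and -0.72 ± 0.96 for Stx11 (SE; limma adjusted p between 0.903 and 0.992).

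The vesicle SNARE Vamp2 was 32.6, 28.0 and 17.4 FPKM in old and 13.6, 15.6 and 33.3 in young libraries, with young replicate 3 above all others (log2 change 0.37 ± 0.51, SE; limma adjusted p = 0.908). Its neuronal relative Vamp1 was 7.76, 11.5 and 5.04 against 4.26, 5.20 and 14.7. Rab37, known from mast cell granules, was 0.338, 2.85 and 5.43 in old and 3.45, 5.02 and 12.2 in young libraries (log2 change -1.14 ± 0.91, SE; limma adjusted p = 0.854). Rab26, of secretory granules, was 1.30, 5.80 and 3.79 against 2.25, 0.0162 and 0.128 (log2 change 1.44 ± 0.89, SE; limma adjusted p = 0.845). Groups overlapped for these 4 genes. Rab3b, below the level for testing, was 0.511, 4.17 and 0.979 in old libraries and 0, 0.189 and 0 in young ones, with no overlap. Rab13 reached 1.24 FPKM in old replicate 1 and was at 0 in the other libraries, and Rab3c was at most 0.00532.

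On the endosomal route Rab5, the switch of early endosomes, had the highest summed level. Rab5a was 63.5, 79.0 and 78.8 FPKM in old and 39.9, 45.7 and 93.2 in young libraries, with young replicate 3 above all others. Rab5c was 35.6, 69.3 and 60.6 against 33.6, 53.4 and 49.4. The log2 changes were 0.40 ± 0.40 for Rab5a and 0.25 ± 0.40 for Rab5c (SE; limma adjusted p = 0.862 and 0.920). Leaving out single libraries put Rab5a between 0.17, without young replicate 1, and 0.77, without young replicate 3, and Rab5c between 0.047, without young replicate 1, and 0.53, without old replicate 1. Rab5b was 22.6, 38.7 and 37.9 in old libraries, against 36.2, 0.380 and 7.44 in young ones. For Rab5b, young replicate 1 lay within the old range and young replicates 2 and 3 below it, with a log2 change of 2.13 ± 1.00 (SE; limma adjusted p = 0.839). A copy, Gm13991, shares 648 aligned bases with Rab5b at 99.4% identity. Without young replicate 1 the Rab5b change was 3.28, at a limma adjusted p of 0.439, and without young replicate 2 it was 0.91. Together the 3 genes summed to 122, 187 and 177 FPKM in old libraries and 110, 99.5 and 150 FPKM in young ones, and only old replicate 1 lay within the young range.

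Rab4b, of fast recycling from early endosomes, was 33.3, 10.3 and 59.0 FPKM in old libraries, and 0, 0 and 51.0 in young ones. The value in young replicate 3 corresponds to about 2269 fragments, while young replicates 1 and 2 are listed at 0. The log2 change of Rab4b was 2.94 ± 1.40 (SE; limma adjusted p = 0.839), the largest of the members tested, and it rests on those 2 libraries. Rab4b shares 65.0% of its exon bases with a read-through gene, Gm21983, on the same strand. Gm21983 has no values in the deposited data, and whether reads were split between the genes was not tested. Its paralogue Rab4a was 3.63, 1.33 and 1.33 in old and 0.698, 0 and 0 in young libraries, with no overlap and a log2 change of 1.30 ± 0.79 (SE; limma adjusted p = 0.844).

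Rab14, which works between the trans-Golgi network and recycling endosomes, was 14.1, 13.1 and 21.7 FPKM in old and 9.58, 8.22 and 11.99 in young libraries. Each old library was above each young one. Its means were 16.3 ± 4.71 and 9.93 ± 1.91 (SD, n = 3), with a log2 change of 0.65 ± 0.54 (SE; limma adjusted p = 0.854). Rab21, of early endosomes and integrin uptake, was 21.5, 48.2 and 33.7 FPKM in old and 41.1, 24.7 and 0.487 in young libraries, which overlapped (log2 change 1.53 ± 1.07, SE; limma adjusted p = 0.854). Without young replicate 3 the Rab21 change was 0.036, and without young replicate 1 it was 2.45.

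Rab11a, the main Rab of recycling endosomes, was 0.624, 0.538 and 8.95 FPKM in old and 0.509, 0.106 and 19.8 in young libraries, with 1 library of either group far above the rest (log2 change -0.16 ± 1.28, SE; limma adjusted p = 0.993). Rab11b was more even, at 7.99, 18.0008 and 22.8 against 13.6, 3.69 and 21.2, and it exceeded Rab11a in every library. Rab35 was 14.4, 24.5 and 13.2 in old and 17.3, 8.31 and 37.9 in young libraries (log2 change -0.08 ± 0.62, SE; limma adjusted p = 0.991), a change that turned positive without old replicate 1, old replicate 3 or young replicate 3. Rab22a was 8.92, 9.08 and 2.14 against 6.60, 12.7 and 2.29. Groups overlapped for these genes.

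Of the endosomal SNAREs, Stx12, also called syntaxin 13, was 12.3, 12.3 and 27.4 FPKM in old and 23.3, 12.7 and 45.2 in young libraries (log2 change -0.54 ± 0.59, SE; limma adjusted p = 0.875). Vamp3, or cellubrevin, was 3.20, 12.5 and 9.09 against 2.82, 19.6 and 0 (log2 change 0.95 ± 1.117, SE; limma adjusted p = 0.883). Vamp5 was 0.313, 0.416 and 12.7 in old and 0.105, 1.99 and 0 in young libraries. Rab31 was 1.09, 0.0626 and 9.35 against 10.5, 0 and 0. These genes overlapped between groups, and each but Stx12 had libraries near 0 beside libraries above 9 FPKM. Rab20 and Rab25 were each above 0 in a single library, young replicate 2 at 2.92 and old replicate 3 at 1.23 FPKM.

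On the lysosomal route Rab7, the switch of late endosomes and lysosomes, was the most even gene of the abundant members. Rab7 (ENSMUSG00000079477, chromosome 6, 87999106 to 88045270, minus strand) was 91.3, 84.6 and 83.9 FPKM in old libraries, against 70.6, 70.8 and 83.8 in young ones. The groups did not overlap, but old replicate 3 and young replicate 3 differed by less than the spread within either group. Its means were 86.6 ± 4.04 in old and 75.1 ± 7.51 in young libraries (SD, n = 3), so that the log2 change came to 0.21 ± 0.30 (SE; limma adjusted p = 0.915). Highest and lowest library differed by 1.29-fold. A processed copy, Rab7-ps1, shares 622 aligned bases with it at 98.4% identity.

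Rab24, an atypical Rab linked to autophagy, had the smallest p of the 63 tested members. Rab24 (ENSMUSG00000034789, chromosome 13, 55319743 to 55321946, minus strand) was 32.0, 22.1 and 21.9 FPKM in old libraries and 17.7, 3.76 and 9.39 in young ones. Each old library was above each young one. The means were 25.3 ± 5.75 and 10.3 ± 7.01 (SD, n = 3). The log2 change came to 1.41 ± 0.61 (SE; limma unadjusted p = 0.0436, adjusted p = 0.839). Over the alternatives tried the change lay between 0.90 and 1.88 and the limma adjusted p between 0.494 and 0.961. Rab24 shares 62.4% of its exon bases with Prelid1 on the opposite strand, and without strand their reads cannot be told apart. Prelid1, which encodes a mitochondrial lipid transfer protein, was 209, 179 and 127 FPKM in old and 215, 99.1 and 46.7 in young libraries, which overlapped (log2 change 0.75 ± 0.50, SE; limma adjusted p = 0.851). Its part in the Rab24 values was not tested.

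**Figure D4:**
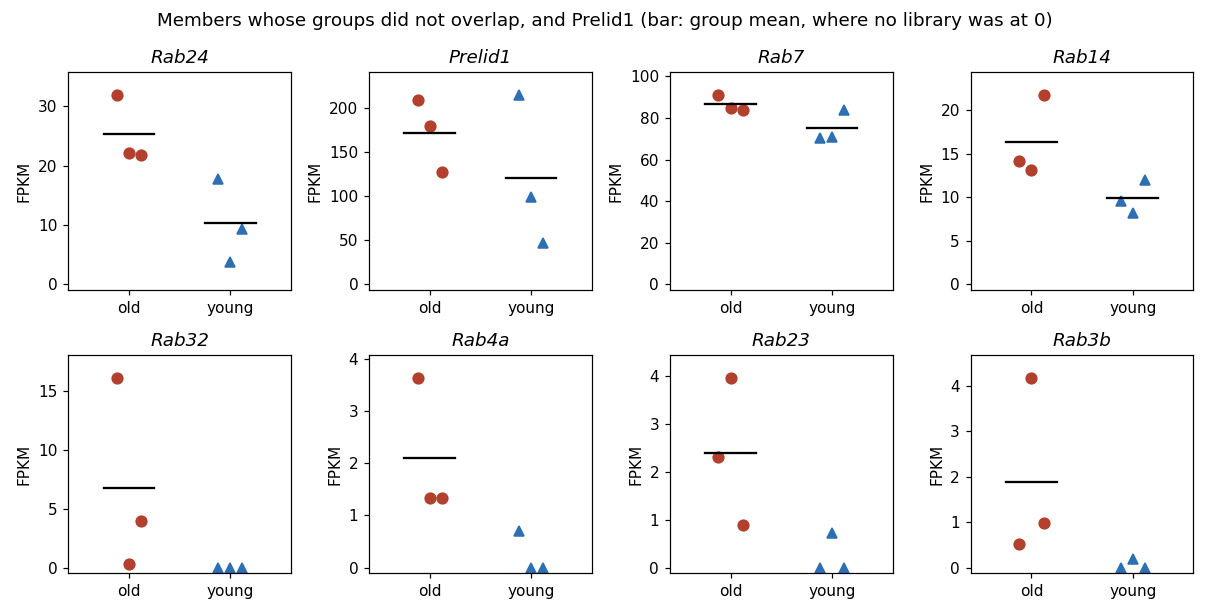
FPKM of Rab24, of its overlapping neighbour Prelid1, and of the other members whose groups did not overlap, 1 point per library, old at left, with a bar at the mean where no library was at 0. Old values lie above young ones for the 7 members shown and overlap for Prelid1, and the gap for Rab7 is that between 83.9 and 83.8 FPKM.

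The SNAREs of late endosomes were present at middling levels. Stx7 was 26.0, 29.6 and 42.6 FPKM in old and 26.5, 39.6 and 24.1 in young libraries. Its partner Stx8 was 7.74, 2.47 and 7.01 against 6.95, 13.9 and 0.00643. Vamp8, the R-SNARE of late endosomes and also of granule release, was 19.996, 17.7 and 31.8 in old and 19.1, 0.778 and 46.3 in young libraries. Stx17, the syntaxin of autophagosomes, was 8.17, 9.60 and 11.4 against 4.25, 0.0935 and 12.5. Old libraries were closely grouped for Stx17, at 9.71 ± 1.598 (SD, n = 3), while the young ones spread on either side of them. Groups overlapped for these 4 genes, with log2 changes of 0.12 ± 0.42 for Stx7, 0.98 ± 1.02 for Vamp8 and 1.32 ± 0.96 for Stx17 (SE; limma adjusted p between 0.854 and 0.979).

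Rab9, of transport from late endosomes back to the Golgi, was 6.23, 19.2 and 17.5 FPKM in old and 39.7, 1.79 and 15.5 in young libraries. Rab12 was 3.41, 19.6 and 9.32 against 9.41, 52.9 and 0.484. Rab29, of the trans-Golgi network and stressed lysosomes, was 11.1, 0.452 and 5.54 in old and 24.3, 8.56 and 0 in young libraries (log2 change -0.36 ± 1.27, SE; limma adjusted p = 0.979), and the sign of its change turned with the pseudocount. Rab39b was 1.10, 9.97 and 3.03 against 7.52, 6.998 and 0, and its relative Rab39 was above 0 in old replicate 1 alone, at 0.449. Groups overlapped for each of these genes except Rab39, which was too low to compare.

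Rab32, Rab38 and Rab7b, which serve lysosome-related organelles and myeloid phagosomes, were at or near 0 in young libraries. Rab32 was 16.1, 0.280 and 3.97 FPKM in old libraries and listed at 0 in the 3 young ones, with no overlap (log2 change 2.25 ± 1.02, SE; limma adjusted p = 0.839). Rab38 was 0.0705, 0 and 8.86 in old against 0.181, 0 and 0 in young libraries, and Rab7b was 0.296, 0 and 5.98 against 0 in each young library. The highest Rab38 and Rab7b values were thus in old replicate 3, and that of Rab32 in old replicate 1.

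Of the genes on no listed route, Rab44, a large Rab of mast cells and other granulocytes, was 0.691, 4.25 and 60.3 FPKM in old and 2.79, 1.94 and 1.61 in young libraries. Without old replicate 3 the old values lay on either side of the young ones, and the log2 change of 1.41 ± 1.224 (SE; limma adjusted p = 0.854) became -0.05. Rab28 was 4.26, 8.59 and 10.2 against 11.3, 1.26 and 0.00957 (log2 change 1.44 ± 1.03, SE; limma adjusted p = 0.854). Rab23, a regulator of Hedgehog signalling and cilia, was 2.31, 3.95 and 0.896 in old and 0, 0.720 and 0 in young libraries, with no overlap (log2 change 1.39 ± 0.80, SE; limma adjusted p = 0.844). Rab40c, a Rab joined to a SOCS box, was even, at 5.598 ± 0.819 in old and 5.00 ± 2.61 in young libraries (SD, n = 3; log2 change 0.24 ± 0.76, SE; limma adjusted p = 0.972). Rab40b and Rab42 did not exceed 1.99 FPKM.

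Marker lists of other marrow cells differed among libraries. In the list for eosinophils, basophils and mast cells, with 9 of 9 genes in the table, the sum was 904, 1167 and 1748 FPKM in old and 1260, 1375 and 1341 in young libraries, most of it from Prg2 at 861 to 1353. Mcpt8, a basophil protease, was 27.6, 9.55 and 265 in old and 12.02, 2.23 and 5.48 in young libraries, and none of the 9 genes was at 0 in old replicate 3. Prss34, Cpa3, Gata2 and Ms4a2 were also highest in that library (274, 54.7, 34.9 and 45.6 FPKM), while Prg2, Epx, Fcer1a and Siglecf were not. The neutrophil list, 12 of 12 genes, summed to 263, 1320 and 943 against 435, 564 and 505, highest in old replicate 2. S100a9 made up 749 FPKM of the sum in old replicate 2. Elane, Mpo, Ctsg and Prtn3 of that list were highest in old replicate 3 (220, 264, 282 and 86.2 FPKM). The other genes of that list were highest elsewhere, and Retnlg and Mmp9 were at 0 in old replicate 3. The monocyte and macrophage list, 10 of 10, summed to 1178, 1336 and 1645 against 1090, 1165 and 1299. Lyz2, Mpeg1, Ms4a6c, Ccr2, Csf1r and Adgre1 of that list were highest in old replicate 3 (516, 39.2, 60.0, 28.1, 8.97 and 2.75 FPKM). Ctss, Cd68, Clec4a1 and Fcgr1 were highest elsewhere. Ctss, at 957 to 1061 FPKM, made up most of the sum in each library. Fcgr1 was at 0 in old replicate 3 and did not exceed 0.0546 FPKM in any library. In old replicate 1 the neutrophil list had its lowest sum. The sum of the list for eosinophils, basophils and mast cells was also lowest there. Prg2, itself lowest in that library, made up 861 of the 904 FPKM, so that rank followed Prg2 and not the rest of the list. Mcpt8 of that list was 27.6 FPKM in old replicate 1, above all libraries but old replicate 3. The part of other cells in the values of Rab44, Rab38, Rab7b and Rab32 was not tested.

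In 6 of the 63 tested members each old library was above each young one, where 8.78% of all genes tested showed this, and in 0 of them was each old library below, where 3.42% did. The 6 are Rab24, Rab7, Rab14, Rab4a, Rab32 and Rab23. For Rab32, Rab4a and Rab23 the young libraries were at most 0.720 FPKM.

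**Figure D5:**
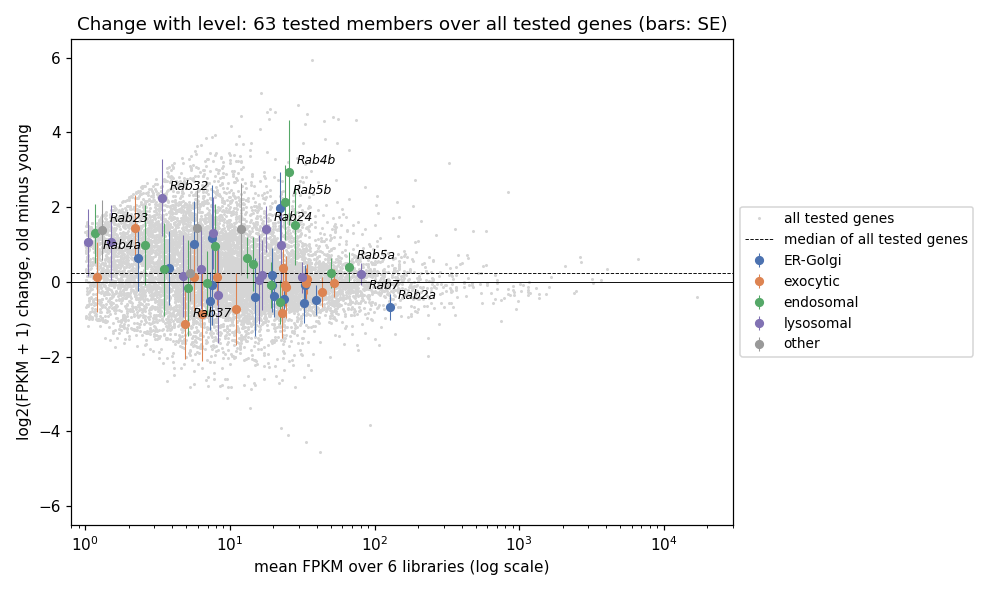
Log2(FPKM + 1) change, old minus young, against mean FPKM for the 63 tested members by route (bars are SE) over all tested genes in grey, with the median of all tested genes dashed. Members lie within the cloud of all genes, from -1.14 for Rab37 to 2.94 for Rab4b, and Rab2a is the most abundant at 128 FPKM.

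Large differences within a group were common. Among the 63 tested members, 16 (25.4%) had at least 1 young library under 0.5 FPKM beside another young library of at least 5 FPKM, against 23.3% of all tested genes. For old libraries this held for 9 members (14.3%), against 11.4% of all tested genes. No exocytic gene did so among young libraries, while 6 of 15 endosomal and 5 of 13 lysosomal genes did. Young replicate 3 had the lowest estimated depth. There 20 of the 63 members (31.7%) were under 0.5 FPKM, against 29.0% of all tested genes. In old replicate 3 it was 2 members (3.17%), against 6.90% of all tested genes. The part of depth was not tested. Of the 24 abundant members, 19 differed by at most 7.47-fold between any 2 libraries. The other 5, Vamp8, Rab21, Rab5b, Rab6a and Rab4b, owed their range to young libraries near or at 0.

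Partners of these proteins were read in 7 lists. Of 126 tested partner genes limma called 0, with 76 higher and 50 lower in old libraries and a median log2 change of 0.14. Unadjusted p was under 0.05 for 5 with higher and 1 with lower old values. Over all genes tested 61.3% were higher, and 4.66% and 1.25% had such a p with higher and with lower old values, so the partners stood near or below the background. Among other SNAREs, 7 of 15 were higher. Vti1b, a Qb-SNARE that pairs with Stx7 and Stx8, was 98.7, 119 and 87.2 FPKM in old libraries and 50.9, 59.7 and 13.5 in young ones, with no overlap (log2 change 1.51 ± 0.53, SE; limma adjusted p = 0.746). Snap29, which joins Stx17 in autophagosome fusion, was 16.0, 15.3 and 12.9 against 13.0, 54.3 and 18.5. Among proteins that recycle SNAREs or bind syntaxins, 7 of 13 were higher; Stxbp2, or Munc18-2, was 25.4, 41.3 and 25.1 in old and 54.3, 40.4 and 50.7 in young libraries, which overlapped.

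Genes that deliver Rabs to membranes had 6 of 7 higher. Gdi2, which carries Rabs in the cytosol, was the most abundant, at 133, 221 and 231 FPKM in old and 179, 197 and 46.7 in young libraries, and Rabggtb, of the enzyme that attaches the lipid anchor, was 44.0, 21.9 and 25.8 against 3.19, 12.6 and 34.0. Of the exchange factors 17 of 32 were higher. Dennd6b was 5.04, 5.45 and 2.19 in old and 0.963, 0.139 and 0 in young libraries, and the tether subunit gene Trappc1 was 16.9, 4.26 and 3.45 against 0.400, 2.57 and 0. Of the GTPase activating proteins 15 of 25 were higher. Tbc1d10c, or carabin, was 50.9, 50.7 and 54.9 FPKM in old against 21.8, 24.1 and 31.9 in young libraries, with no overlap (log2 change 1.00 ± 0.37, SE; limma adjusted p = 0.793), and Tbc1d20, which acts on Rab1, was 6.06, 21.5 and 20.52 against 23.2, 18.3 and 54.4.

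Of exocyst and exocytic effector genes 10 of 14 were higher. Rims2, a Rab3 effector, was 14.2, 14.4 and 12.3 FPKM in old libraries, where the young ones had at most 0.0239, and its limma adjusted p of 0.460 was the smallest of the partners. Exoc2, an exocyst subunit, was 9.44, 13.3 and 11.95 against 10.01, 0.665 and 3.87. Of the HOPS, CORVET and endosomal effector genes 14 of 20 were higher. Tgfbrap1, a CORVET subunit that binds Rab5, was 14.2, 7.88 and 9.19 in old and 6.55, 1.04 and 2.18 in young libraries, with no overlap. Rab11fip4, an effector of Rab11, went the other way without overlap, at 0.136, 5.01 and 15.8 in old and 16.04, 32.8 and 19.0 in young libraries (log2 change -2.22 ± 0.94, SE; limma adjusted p = 0.839).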

How the data were processed

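Paired-end RNA-seq of sorted plasma cells gave 6 libraries, each from 5 ng RNA (stranded total-RNA chemistry, per the labels' protocols). The authors deposited FPKM values per gene, scaled to gene length and library size. The submitters' processing notes name bcl2fastq 2.17, STAR and DESeq2 without roles, and GRCm38 and mm10. The counter, its strand setting and the annotation are not given in the sources used here. FPKM are not counts, so log2(FPKM + 1) was fitted with limma (version 3.58.1, R 4.3.3, trended variance) over all 10687 genes with a mean of 1 FPKM or more. Tests were two-sided, with Benjamini-Hochberg adjustment over all these genes and a threshold of 0.05. A change on this scale, old minus young, understates that of low genes. The fit was tested on simulated data. Coordinates and exons come from GENCODE M21. Copies were sought with BLAST (at least 95% identity over 300 bases). A copy, or exon bases shared with another gene, was found for 26 members, and 9 members shared at least 10% of their exon bases. Not all of these are named here. Depth was approximated from the FPKM step of 1 fragment and exon length.

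Members, routes, lists and motifs were chosen with earlier results of these data known. The rule gave values and a test to the 3 members of highest mean and the 3 of smallest p per direction in each route, to members whose groups did not overlap, and to a set for antibody secretion and degradation: 43 members, of which Rab3b was too low to test. Vamp7 of that set was not analysed here. The other members are given by their values alone. Partner lists name up to 2 genes of smallest p each, and 1 such gene is not reported here. Alternatives changed the pseudocount, filter, scaling, moderation, weights, replicate block or the libraries used.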

Additional observations from a re-analysis of the deposited data

How the results depend on the processing

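No member was called under any of 14 alternatives, and their smallest limma adjusted p was 0.439. Over all genes, quantile normalization, robust moderation and array weights each called 1 gene, Hist1h3f, where the other alternatives called 0. The median log2 change of the members, 0.17, was -0.033 after quantile normalization, when that of all genes was -0.01. Without single libraries it ranged from 0.036, without young replicate 3, to 0.49, without old replicate 1, and 33 to 46 of 63 members were higher in old. The signs of small changes were not stable: of 583 values of 42 named members under the alternatives, 534 kept their direction and 49 reversed. Quantile normalization turned Rab33b to -0.042, Rab8b to 0.047, Rab8a to 0.024, Stx3 to -0.36 and Rab40c to -0.12, and median-ratio scaling turned Rab3d to -0.027. Array weights turned Stx18 to 0.017, Rab8a to 0.15, Rab27a to 0.076, Stx3 to -0.0064, Rab35 to 0.26 and Rab11a to 0.026. A pseudocount of 0.1 turned Rab11a to 0.25 and Rab29 to 0.24. Leaving out single libraries gave ranges that span 0: Rab1a -0.55 to 0.22, Rab1b -0.94 to 0.038, Rab8b -0.19 to 0.26, Rab10 -0.48 to 0.035, Rab3d -0.14 to 0.21, Rab8a -0.22 to 0.19, Stx4a -0.98 to 0.55, Rab27a -0.43 to 0.34, Stx11 -1.57 to 0.045, Stx3 -0.38 to 0.67, Rab35 -0.59 to 0.44, Vamp3 -0.095 to 2.09, Rab11a -1.05 to 1.18, Stx7 -0.082 to 0.33, Vamp8 -0.39 to 1.97, Rab29 -1.68 to 0.65, Rab44 -0.045 to 2.54 and Rab40c -0.18 to 0.52. Leaving out 1 library moved the change by over 1.5 times in 36 of the 42, and in none of Rab14, Rab23, Rab26, Rab2a, Rab4a and Rab7. The causes were not tested. The labels do not say whether replicate numbers 1 to 3 in the titles pair libraries. Correlations of same-numbered deviations were -0.034, 0.020 and -0.0041, so no shared signal was seen, but such values cannot exclude a pairing. With a replicate block 0 genes were called, the members' median was 0.17 and 39 of 63 were higher. With 3 libraries a group, and low values resting on few fragments, small differences were not detectable, and large ones could also go uncalled. The partner Rims2, at 12.3 to 14.4 FPKM in old and at most 0.0239 in young libraries, had a log2 change of 3.85 (limma adjusted p = 0.460).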
